A study of Mus musculus with 28 samples.

Results

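The genes described here encode the proteins of the cytosolic ribosome. They were chosen by symbol, as those beginning with Rpl, Rps or Rplp followed by a digit, without the pseudogenes that end in -ps, the S6 kinases (Rps6k) and Rps19bp1. The rule found 91 of the 35858 genes that the transcripts of set 2 could be assigned to, and 87 of the 24845 genes in the table of set 1. Of the 91, 55 belong to the large subunit and 36 to the small subunit, while 84 are protein coding and 7 are annotated as processed pseudogenes, among them Rps4l and Rpl37rt. The rule used no measured value.

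The samples came from adult mice that carry human APOBEC3B (A3B), a cytidine deaminase, fused to turboGFP under a tetracycline operator in the ColA1 locus. In A3B mice this allele was combined with the CAGs-rtTA3 transgene, whose promoter drives the transactivator in most tissues, so that doxycycline (dox) switches A3B on. RNA was sequenced from whole tissue, in 2 sets that were processed differently. Tests were made only within a set, and values of both sets are set side by side as descriptions. Set 2 holds the livers of 6 A3B and 2 control mice and the pancreases of 6 A3B and 2 control mice, and set 1 holds 3 A3B and 3 control livers and 3 A3B and 3 control lungs.

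Groups follow the sample titles. By their genotype labels, A3B mice carry both A3B and CAGS-rtTA, and controls carry A3B without the transactivator, with exceptions. The control lung of mouse 87 is labelled as CAGs alone, and the control liver of mouse 11 as A3B + CAGS-rtTA. In the pancreas the labels cross: the A3B pancreases of mice 44 and 137 are labelled A3B only, and both control pancreases (mice 45 and 168) are labelled A3B + CAGS-rtTA, while the livers of mice 45 and 168 are labelled A3B. The labels state food with 625 ppm dox for all animals. The stated time was 10 days for set 2, for the A3B lungs and for the A3B liver of mouse 70, 14 days for the A3B livers of mice 23 and 28, and 15 days for the controls of set 1, although the records of the study list most controls as not fed dox. Liver and pancreas were both taken from 7 mice of set 2, and liver and lung from 2 mice of set 1.

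A ribosome joins a small subunit, which reads the mRNA, and a large subunit, which forms the peptide bond, and each holds one copy of most of its proteins. Cells need these proteins in matched amounts, and their mRNAs share a control of translation: most begin with a run of pyrimidines (the TOP motif) through which mTORC1 signalling and Larp1 set how fast they are translated. Secretory cells such as the acinar cells of the pancreas hold very many ribosomes. A few ribosomal proteins have a second gene, or paralogue, used in some tissues or under stress.

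The promoters of 66 of the 91 genes were found in the RefSeq table (GRCm38.p6, the mm10 assembly). Sequence is printed for 10 of them, from 30 bases before to 25 bases after the annotated start. They hold genes with low fold changes in the pancreas and genes that did not pass the test there. Rps6, Rpl18 and Rpl28 were chosen also because the letters CTCTTT lie at the start or next to it. Each is given on the strand of the gene, and capitals mark the pyrimidine letters CTTTC and CTCTTT, the core of an ETS factor motif (as it reads on either strand) and the TATA box, whose letters are spelled out after the sequences. Other pyrimidine runs, such as those near the start of Rpl22l1 and Rps24, are left in lower case. The first 5 genes had the lower fold changes in A3B pancreas; Rpl28, Rpl4 and Rpl7l1 did not pass the test there.
Rpl35, chr2:39005107-39005161, minus strand: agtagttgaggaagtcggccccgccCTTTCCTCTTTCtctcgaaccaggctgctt
Rpl22l1, chr3:28805478-28805532, plus strand: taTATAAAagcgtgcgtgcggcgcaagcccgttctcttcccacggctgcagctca
Rps27l, chr9:66946056-66946110, plus strand: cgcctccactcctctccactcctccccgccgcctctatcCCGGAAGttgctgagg
Rps24, chr14:24490648-24490702, plus strand: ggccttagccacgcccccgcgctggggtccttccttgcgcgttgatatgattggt
Rpl41, chr10:128549144-128549198, minus strand: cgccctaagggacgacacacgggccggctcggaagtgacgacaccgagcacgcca
Rps6, chr4:86857343-86857397, minus strand: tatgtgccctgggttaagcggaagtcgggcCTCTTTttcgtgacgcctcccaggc
Rpl28, chr7:4792935-4792989, plus strand: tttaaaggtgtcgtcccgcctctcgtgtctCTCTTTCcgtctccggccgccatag
Rpl4, chr9:64173357-64173411, plus strand: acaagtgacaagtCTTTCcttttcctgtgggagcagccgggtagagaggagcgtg
Rpl18, chr7:45718041-45718095, plus strand: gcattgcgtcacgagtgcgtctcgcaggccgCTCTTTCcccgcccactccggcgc
Rpl7l1, chr17:46782632-46782686, minus strand: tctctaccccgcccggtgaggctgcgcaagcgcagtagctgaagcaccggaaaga

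Between 10 bases before and 15 bases after the start, on the strand of the gene, the pyrimidine letters CTTTC were present in 16 of the 66 promoters (24.2%) and in 3.68% of the 27025 promoters of the table. CTCTTT, which can overlap CTTTC, was present there in 7 (10.6%) against 1.03%. The ETS core CCGGAAG was present in 4 (6.06%) against 1.02%. Over the whole window of 300 bases and on either strand, CCGGAAG or CTTCCGG was found in 25 of the 66 (37.9%) against 9.93% of all promoters, whereas the TATA box, TATAAA or TTTATA, was found in 8 (12.1%) against 15.7%. The fold changes in the A3B pancreas were not set apart by the pyrimidine letters: the median log2 fold change was -1.74 over the 18 tested genes with CTTTC or CTCTTT near the start and -1.998 over the 46 tested genes without. In the liver of set 2 these medians were 0.64 over 17 genes and 0.66 over 46 genes. A match of letters is a description and not a binding site.

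Related copies may limit some genes: the -ps pseudogenes, which can share reads with their parents, took 7.41% to 11.0% of the summed level of family and pseudogenes. Levels of some genes also differed widely between the sets, and the cause was not tested. Rpl5 and Rpl12 stood at 6.87 and 7.87 TPM in control liver of set 2 against 571 and 745 TPM in set 1, so both are uncertain. Rpl4 was at 507 and 430 TPM in control livers of set 2 and at 4618 to 6130 TPM in set 1. Rps19 was at 287 and 374 TPM against 3134 to 5510 TPM. Rps6 differed the other way, at 445 and 464 TPM against 37.4 to 75.9 TPM. Levels of such genes are uncertain as well. The libraries of set 2 held 65161064 to 118976013 estimated counts each. The control pancreas libraries stood apart from all others: their 10 genes with the most counts took 62.2% and 59.5% of all counts, against 12.04% to 20.4% in the A3B pancreases and 13.9% to 24.8% in the livers. The summed level of 12 acinar markers was 409400 and 410989 TPM (a level corrected for transcript length and scaled to the same total in each library) in the control pancreases and 73722 to 189151 TPM in the A3B pancreases, with none of the markers at 0. Changes of level there therefore depend on the scaling, and each is given below beside the median over all genes. In bulk tissue, fewer cells of a type and less RNA per cell cannot be told apart.

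The genes took a larger share of all TPM in the A3B livers of set 2. The share was 2.92% and 3.28% in the control livers of mice 45 and 168, and 4.55%, 7.75%, 13.4%, 4.68%, 4.20% and 4.34% in the A3B livers of mice 44, 137, 49, 125, 48 and 153. Every A3B liver lay above both controls, and mouse 49 lay far above the other A3B livers. In the pancreas the share was 16.7% and 14.0% in the controls of mice 45 and 168, and 9.77%, 21.05%, 17.7%, 20.6%, 15.7% and 15.8% in the A3B pancreases of mice 44, 53, 49, 125, 137 and 153. These groups overlapped, with mouse 44 lowest.

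The TPM of the family was also divided by the total of each library without its 10 genes of highest TPM. Genes of the family among those 10 stayed in its own sum, so this is not a share of the remaining genes. On this measure the order of the group means in the pancreas turned. The values were 32.0% and 26.5% in the controls and 14.3%, 25.6%, 22.2%, 27.0%, 21.7% and 22.3% in the A3B mice. The liver kept its order, with 3.93% and 4.42% in the controls and 5.35% to 15.9% in the A3B mice. In set 1 the share was 5.58%, 10.1% and 7.96% in the control livers of mice 11, 91 and 92, and 9.75%, 12.8% and 6.44% in the A3B livers of mice 23, 28 and 70. The lungs had 9.76%, 7.62% and 11.4% in the controls of mice 87, 88 and 91, and 7.06%, 7.02% and 7.67% in the A3B mice 69, 70 and 74. In both tissues of set 1 the groups overlapped, the lungs only through control mouse 88 and A3B mouse 74.

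**Figure D1:**
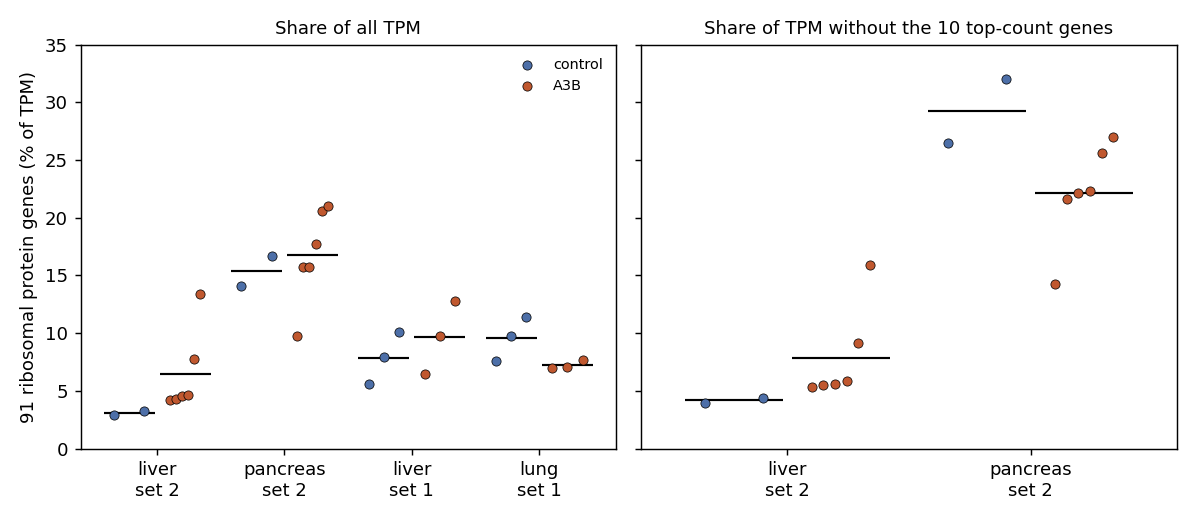
Left: share of all TPM (percent) taken by the ribosomal protein genes in each library, for the 4 tissues and sets. Right: the same sum as a percent of the total without the 10 genes of highest TPM, in set 2. The title of the right panel says top-count genes, and genes of the family among the 10 stay in its sum. Points are libraries and bars are group means. Control pancreases sit at 16.7% and 14.0% on the left, within the range of the A3B pancreases, and at 32.0% and 26.5% on the right, where only A3B mouse 125 at 27.0% lies above control mouse 168.

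Levels differed by tissue before A3B was considered. Among 78 coding genes above 10 TPM in the control livers, 73 had a higher mean level in the control pancreases, with a median ratio of 3.23. The median coding gene stood at 362 TPM in control liver and 906 TPM in control pancreas of set 2. The 5 highest genes of control pancreas (Rpl41, Rpl13a, Rps24, Rps12 and Rps25) took 30.1% of the summed level of the family there. Each group's own 5 highest genes, which overlap those in part, took 14.0% in control liver and 17.9% in A3B pancreas. The ratio of summed large to summed small subunit TPM was 1.13 to 1.39 in the livers and 0.995 to 1.26 in the pancreases of set 2, and 1.37 to 1.77 in the livers and 1.40 to 1.56 in the lungs of set 1, where several genes were listed at 0.

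No ribosomal protein gene passed the test in the livers of set 2 (edgeR's quasi-likelihood test, Benjamini-Hochberg adjusted, threshold 0.05). Of the 85 tested, 0 were higher and 0 lower, where 1.26% of all genes were called higher and 2.41% lower. At an unadjusted p under 0.05, 3 were higher (Rpl12, Rpl36 and Rpl3l), where 22.9% of all genes had such a p in either direction, and DESeq2 called 1 higher, Rpl3l (adjusted p = 0.0466), where it called 7.49% of all genes higher. With total counts 20 of the 85 were higher at an unadjusted p under 0.05, where 5216 of 17365 genes had such a p in either direction, and 0 passed the adjusted threshold. The fold changes were positive for 78 of the 85, with a median log2 fold change of 0.64 against 0.21 over all genes. Scaled by total counts the medians were 1.13 and 0.67. On log counts scaled by TMM (the trimmed mean of M-values, edgeR's default), every A3B liver lay above both controls for 6 of the 85 (15% of all genes) and below both for 0 (12.8%). On the TPM scale the first count was 47 of 83 (26% of all genes), and the other was 0 (6.18%).

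Single genes show how far the A3B livers differ among themselves. Rpl36, a large subunit protein, was at 557 and 697 TPM in the control livers and at 1359 (lowest), 1601 (median) and 3243 TPM (highest) in the A3B livers, without overlap, with a log2 fold change of 1.35 (SE 0.489, adjusted p = 0.143, edgeR). Rpl12, near the base of the stalk, stood at 7.44 and 8.31 TPM in controls and at 12.8, 23.8 and 41.5 TPM in A3B livers, again without overlap (1.13, SE 0.450, adjusted p = 0.175, edgeR). Rpl3l, the paralogue of Rpl3 used in heart and skeletal muscle, was close to nothing at 0.144 and 0.0406 TPM in controls and 0.472, 0.626 and 1.55 TPM in A3B livers (2.49, SE 0.942, adjusted p = 0.156, edgeR). The highest of these was mouse 48.

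Rpl22l1, the paralogue of Rpl22, was at 48.8 and 65.0 TPM in control livers and at 88.1, 122 and 787 TPM in A3B livers (log2 fold change 1.68, SE 0.894, adjusted p = 0.290, edgeR). Mouse 49 gave the highest value, more than any other liver, and the groups did not overlap. Rps6, the small subunit protein phosphorylated by the S6 kinases, was at 445 and 464 TPM in controls and 483, 686 and 1751 TPM in A3B livers (0.63, SE 0.516, adjusted p = 0.495, edgeR). The retrotransposed copy Rps27rt ranged from 0.0186 to 28.7 TPM in the A3B livers, around controls at 0.276 and 5.04 TPM (1.61, SE 1.75, adjusted p = 0.617, edgeR).

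The most negative fold change in the liver belonged to Rps2, a small subunit protein of the mRNA entry channel. It was at 911 and 735 TPM in controls and at 268, 640 and 1082 TPM in A3B livers, which overlapped (-0.65, SE 0.546, adjusted p = 0.506, edgeR). Rplp0, the stalk protein, overlapped as well, with 453 and 442 TPM in controls and 122, 476 and 1228 TPM in A3B livers. Mouse 49 carried much of the liver difference: without it the median log2 fold change over the genes was 0.30. That library also had the lowest summed level of 12 hepatocyte markers, 41956 TPM, against 98684 and 149284 TPM in the controls, the highest of 9 macrophage markers, 809 TPM, and the highest of 8 neutrophil markers, 122 TPM. The hepatocyte sum was below both controls in every A3B liver, at 41956 to 97994 TPM. By the test over all livers 1 of the 12 hepatocyte markers was lower, and 0 macrophage or neutrophil markers were higher, although all 8 neutrophil markers had positive fold changes (median 2.72 against 0.21 over all genes). Their part in the result was not tested. Without control mouse 45 the median was 0.35.

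The pancreas gave the most calls, and their direction depended on the scaling. With TMM, 68 of the 88 tested genes were lower in A3B pancreas and 1 was higher, where 14.9% of all genes were called lower and 17% higher. The median log2 fold change was -1.75, against 0.09 over all genes. Scaled by total counts, 30 were higher and 3 lower (Rps27l, Rpl41 and Rpl5), where 70.5% of all genes were called higher and 1.1% lower. That scaling moved the median of all genes to 2.29 and that of the ribosomal protein genes to 0.61. With limma on log2(TPM + 1), 34 were higher and 3 lower (Rps27l, Rpl41 and Rpl35), against 83.9% and 1.12% of all genes.

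Relative to the median of all genes the direction was the same on each scale. The 2 count scalings shift all genes of a library alike, so that they give the same direction here is close to fixed in advance. The median of the ribosomal protein genes lay 1.84 below that of all genes with TMM, 1.67 below with total counts and 1.19 below on log2(TPM + 1). Each is a difference of medians on a log2 scale. Under both count scalings 86 of the 88 tested genes lay below the median of all genes, and 76 of 83 did on log2(TPM + 1). The large subunit had 40 of 53 lower with TMM (median -1.64) and the small subunit 28 of 35 (median -1.98). On TMM-scaled counts, every A3B pancreas lay below both controls for 66 of the 88 (18.9% of all genes) and above for 1 (25.1%). On the TPM scale 8 of 83 lay below (1.15% of all genes) and 35 above (82%), the 8 being Rpl41, Rpl13a, Rps24, Rps27l, Rpl22l1, Rpl35, Rpl17 and Rpl5.

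**Figure D2:**
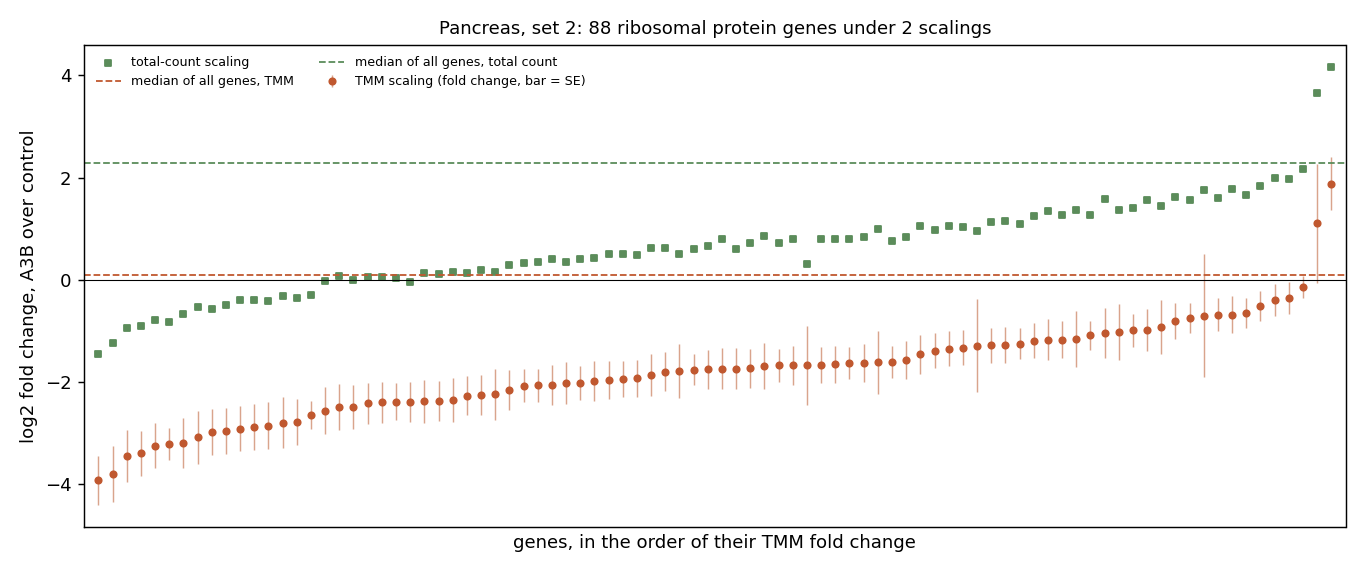
Log2 fold change, A3B minus control pancreas, of the 88 tested ribosomal protein genes with TMM and with total-count scaling. Points with TMM carry bars of 1 SE, worked out from the F statistic, and set the order of the genes. Dashed lines mark the median over all genes under each scaling. The points centre on -1.75 with TMM, below the line at 0.09, and on 0.61 with total counts, below the line at 2.29.

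The 5 genes with the highest level in control pancreas were all lower with TMM, where 86 of the 88 tested genes had negative fold changes. They were picked by the same 2 control libraries they are compared with, a choice that favours lower values in the A3B mice. Rpl41, the smallest ribosomal protein, was at 18678 and 9938 TPM in the control pancreases and at 2910 (lowest), 6438 (median) and 9189 TPM (highest) in A3B pancreases. All 6 A3B values lay below both controls, and the log2 fold change was -3.80 with TMM (SE 0.552, adjusted p = 0.000875, edgeR) and -1.24 with total counts (adjusted p = 0.0260, edgeR). Rpl13a, which leaves the ribosome to silence inflammatory mRNAs after interferon-gamma, was at 11836 and 10363 TPM in controls and at 3447, 8457 and 10079 TPM in A3B mice. The groups did not overlap, by a small margin (-2.96 with TMM, SE 0.457, adjusted p = 0.0012; -0.50 with total counts, adjusted p = 0.275, edgeR).

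Rps24, a small subunit protein mutated in some patients with Diamond-Blackfan anaemia, was at 10749 and 8286 TPM in controls and at 1896, 5712 and 7198 TPM in A3B pancreases. No A3B value reached a control value (-3.45 with TMM, SE 0.502, adjusted p = 0.000884; -0.94 with total counts, adjusted p = 0.0763, edgeR). Rps12 was at 7367 and 4372 TPM in controls and at 1682, 4298 and 5927 TPM in A3B mice, which overlapped (-3.08 with TMM, SE 0.521, adjusted p = 0.00183; -0.53 with total counts, adjusted p = 0.307, edgeR). Rps25, needed for initiation on some viral and cellular internal ribosome entry sites, was at 6393 and 4297 TPM in controls and at 1388, 3566 and 4667 TPM in A3B mice (-3.20 with TMM, SE 0.489, adjusted p = 0.00114; -0.68 with total counts, adjusted p = 0.170, edgeR).

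Rps27l, a paralogue of Rps27 that p53 induces, had the most negative fold change of all the genes. It was at 2041 and 1588 TPM in controls and at 261, 657 and 1107 TPM in A3B pancreases, without overlap. Its log2 fold change was -3.93 with TMM (SE 0.485, adjusted p = 0.000396) and -1.45 with total counts (adjusted p = 0.0103, edgeR), so it was lower on each scale. Rpl35, at the exit tunnel of the large subunit, was at 2473 and 1771 TPM in controls and at 526.4, 1259 and 1463 TPM in A3B mice, without overlap (-3.40 with TMM, SE 0.440, adjusted p = 0.000487; -0.90 with total counts, adjusted p = 0.0502, edgeR). Rpl22l1 was at 1297 and 1123 TPM in controls and at 269, 759 and 1015 TPM in A3B mice, again without overlap (-3.25 with TMM, SE 0.449, adjusted p = 0.000675; -0.79 with total counts, adjusted p = 0.112, edgeR).

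A further group had lower fold changes with TMM but higher levels on the TPM scale. The stalk proteins, which recruit the elongation factors, are an example. Rplp0 was at 809 and 1022 TPM in controls and at 1332, 1888 and 2443 TPM in A3B pancreases (-1.39 with TMM, SE 0.341, adjusted p = 0.0117; 0.98 with total counts, edgeR). Rplp1 was at 2837 and 1618 TPM in controls and 3007, 4397 and 5332 TPM in A3B mice (-1.69 with TMM, SE 0.444, adjusted p = 0.0158; 0.86 with total counts, edgeR). Rplp2 was at 1039 and 1103 TPM in controls and 1617, 2200 and 2851 TPM in A3B mice (-1.28 with TMM, SE 0.340, adjusted p = 0.0163; 1.12 with total counts, edgeR). All A3B pancreases lay above both controls in TPM for each of these genes.

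Several ribosomal proteins are known for more than their place in the ribosome. Rpl11, which binds Mdm2 when ribosome assembly is disturbed, was at 760 and 796 TPM in controls and at 980, 1416 and 1634 TPM in A3B mice, without overlap (-1.68 with TMM, SE 0.326, adjusted p = 0.00364; 0.73 with total counts, edgeR). For Rps6, controls at 2352 and 1685 TPM overlapped A3B pancreases at 1215, 2270 and 2897 TPM (-2.38 with TMM, SE 0.428, adjusted p = 0.00251; 0.12 with total counts, edgeR). Rps19, also mutated in Diamond-Blackfan anaemia, was at 3161 and 2645 TPM in controls and 1653, 3336 and 4033 TPM in A3B mice (-2.37 with TMM, SE 0.399, adjusted p = 0.00178; 0.10 with total counts, edgeR). Rpl38, which supports translation of Hox mRNAs in the embryo, was at 3024 and 1648 TPM in controls and 1489, 2637 and 3310 TPM in A3B mice (-2.49 with TMM, SE 0.443, adjusted p = 0.0024; 0.08 with total counts, edgeR). The last 3 overlapped.

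The genes with the least negative fold changes stood well above the controls in TPM. Rpl4, a large subunit protein that lines the exit tunnel, was at 191 and 248 TPM in controls and at 636, 774 and 911 TPM in A3B pancreases, without overlap (-0.51 with TMM, SE 0.298, adjusted p = 0.210; 1.83 with total counts, edgeR). Rpl28 was at 226 and 209 TPM in controls and at 697, 844 and 944 TPM in A3B mice (-0.39 with TMM, SE 0.313, adjusted p = 0.358; 1.99 with total counts, edgeR). Rpl7l1, the paralogue of Rpl7 found in assembling large subunits, was at 9.41 and 14.5 TPM in controls and 61.6, 66.2 and 94.1 TPM in A3B mice (-0.14 with TMM, SE 0.219, adjusted p = 0.653; 2.16 with total counts, edgeR). None of these groups overlapped in TPM, and with total counts each lay near the median of all genes.

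Rps4l, a transcribed copy of Rps4x annotated as a processed pseudogene, was the 1 gene that was higher with TMM. It was at 2.02 and 2.62 TPM in controls and at 27.3, 35.9 and 78.6 TPM in A3B pancreases, the highest being mouse 137. The groups were far apart (1.88 with TMM, SE 0.523, adjusted p = 0.0215, edgeR), although without control mouse 45 or 168 it was no longer called (adjusted p = 0.0525 and 0.131, edgeR). Rpl6l, another copy, was below 1 TPM in every pancreas (1.10 with TMM, SE 1.16, adjusted p = 0.494, edgeR). Rpl10l, the testis paralogue of Rpl10, was listed at 0 in all libraries, and Rpl10l, Rpl32l and Rps12l1 were not tested in the pancreas.

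**Figure D3:**
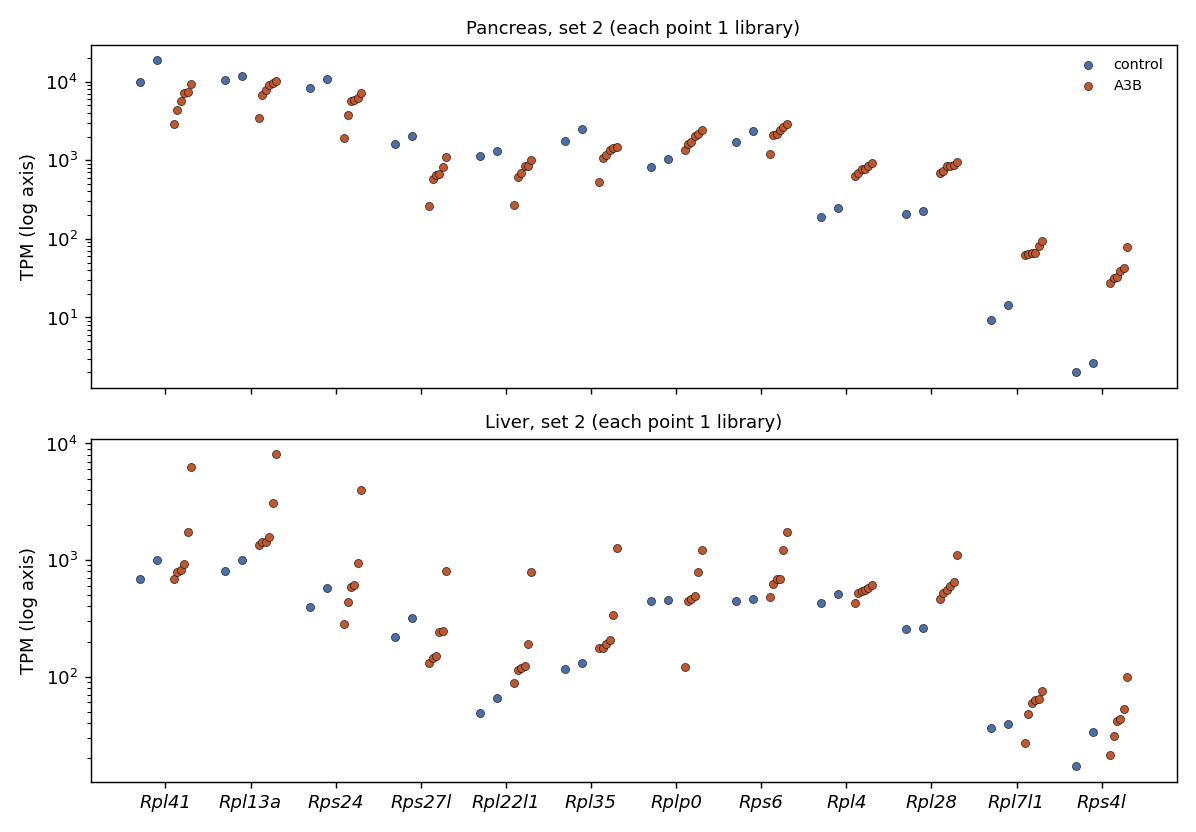
TPM (log axis) of 12 ribosomal protein genes in each library of set 2, in the pancreas and the liver, with controls and A3B mice as separate points. In the pancreas Rpl41, Rpl13a, Rps24, Rps27l, Rpl22l1 and Rpl35 lie below both controls in all 6 A3B mice, while Rplp0, Rpl4, Rpl28, Rpl7l1 and Rps4l lie above.

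The pancreas calls rested in part on few controls. Without control mouse 45, 31 genes were lower (8.77% of all genes, median -1.07). Without control mouse 168, 74 were lower (12.7%, median -2.26). Without the A3B pancreases of mice 44 and 137, whose genotype labels go against their titles, 59 were lower (11.2%). In the same comparison 11 of 12 acinar markers were lower (median log2 fold change -3.65), 6 of 9 macrophage markers higher (2.60), 6 of 8 fibroblast markers higher (1.90) and 3 of 7 ductal markers higher (0.04). With total counts 6 acinar markers were lower and 2 higher (-1.27), and 7 markers of each of the other 3 lists were higher (4.54, 4.02 and 2.45). All 6 adipocyte markers had negative fold changes with TMM (median -2.39) and 4 with total counts (-0.41), and none was called on either scale. With TMM 11 of 12 hepatocyte markers had positive fold changes and 1 was called higher (0.85), and 2 of 8 endocrine markers were lower (-1.09). With total counts 6 and 4 of these were higher and 0 lower (3.62 and 1.28). B and plasma cell markers (-2.05 with TMM, -0.14 with total counts) and T cell markers (-1.05 and 0.86) gave no call on either scale. Summed macrophage markers were at 38.4 and 521.7 TPM in the controls and at 1212 to 3635 TPM in the A3B mice, where Clec4f was at 0 in at least 1 library, and summed fibroblast markers at 42.6 and 190 TPM against 985 to 1523 TPM, with no marker at 0. Summed ductal markers were at 106 and 142 TPM in the controls and at 1329 to 3025 TPM in the A3B mice, without overlap. Summed hepatocyte markers were at 32.9 and 81.7 TPM in the controls and at 199 to 1235 TPM in the A3B mice. Summed endocrine markers were at 3434 and 3510 TPM against 3761 to 13295 TPM. Neither overlapped. The part of these cell types in the result was not tested.

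The design also asks whether the A3B effect differed between tissues. The effect in the pancreas minus that in the liver was lower for 46 of 89 genes and higher for 0 with TMM, where 5.03% and 6.87% of all genes were called (edgeR interaction term). The median difference was -2.36 against 0.03 over all genes. Adding the mouse as a block, since 7 mice gave both tissues, left 6 lower (2.44% of all genes): Rpl22l1, Rpl35, Rpl36, Rpl3, Rpl31 and Rpl36al. The median with the block was -2.20. Without mouse 45, 0 were called (0.163% of all genes), and without mouse 168, 5 (0.852%). With total counts 2 were lower and 3 higher (1.12% and 39.4% of all genes), with a median of -0.54 against 1.59 over all genes.

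Rpl22l1 had the largest difference between the tissues among the genes named, -4.76 (SE 1.11, adjusted p = 0.0147, edgeR) and -4.27 with the block (adjusted p = 0.0461). For Rpl35 it was -4.25 (SE 0.951, adjusted p = 0.0119, edgeR) and -3.87 with the block (adjusted p = 0.0467). The differences of Rpl41, -4.37 (SE 1.28, adjusted p = 0.0378, edgeR), and Rps25, -4.03 (SE 0.984, adjusted p = 0.0179, edgeR), were not called with the block (adjusted p = 0.146 and 0.0755).

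Ratios between a paralogue and its partner hardly depend on the scaling of a library where both genes stand well above 1 TPM. Near 1 TPM the added 1 weighs, as for Rps4l at 2.02 and 2.62 TPM in the control pancreases. They were computed as log2 ratios of (TPM + 1) within each library, 18 in all over the pairs and tissues with measurable levels, and compared by exact permutation tests, two-sided. The smallest p that 6 against 2 samples allow is 0.0714, and 0.1 for 3 against 3, so none could pass 0.05. After adjustment over the 18 these limits were 0.161 and 0.18.

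The ratio of Rps27l to Rps27 was lower in both tissues of set 2. It was -1.49 and -1.34 in the control livers and -3.64 to -2.07 (median -3.11) in the A3B livers, a difference of -1.52 (exact permutation p = 0.0714). In the pancreas it was -1.43 and -0.57 in controls and -3.46 to -2.05 (median -3.22) in A3B mice, a difference of -2.08 (exact permutation p = 0.0714). No A3B value reached a control in either tissue. Rps27 itself was at 618 and 809 TPM in control livers and 1131, 1458 and 3403 TPM in A3B livers, while Rps27l was at 219 and 319 TPM against 132, 196 and 810 TPM. In TPM, Rps27 did not overlap between the groups and Rps27l did, and the fold change of Rps27l in the liver was -0.23 with TMM (SE 0.695, adjusted p = 0.874, edgeR) and 0.31 with total counts.

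The ratio of Rpl22l1 to Rpl22 moved in opposite directions. In the liver it was -1.98 and -1.78 in controls and -1.26 to 0.25 (median -0.88) in A3B mice, higher in all 6 by a mean of 1.10 (exact permutation p = 0.0714). In the pancreas it was 0.58 and 1.16 in controls and -0.92 to -0.17 (median -0.47) in A3B mice, lower in all 6, with a difference of -1.36 (exact permutation p = 0.0714). Rpl22l1 was thus the more abundant member of the pair in control pancreas and Rpl22 in A3B pancreas. Lungs of set 1 had -3.28 to -2.98 in controls and -3.68 to -3.34 in A3B mice, a difference of -0.41 without overlap (exact permutation p = 0.1), and the livers of set 1 overlapped, with a difference of 0.77 (exact permutation p = 0.2).

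Rpl36al and Rpl36a encode almost identical proteins, and their ratio gave lower values in 3 of the 4 comparisons. The values were 0.92 and 0.93 in control livers of set 2 and -0.20 to 0.53 in A3B livers, a difference of -0.66 (exact permutation p = 0.0714). They were 0.46 and 0.79 in control pancreases and -0.60 to -0.26 in A3B pancreases, a difference of -1.06 (exact permutation p = 0.0714). The livers of set 1 had -0.76 to -0.62 in controls and -1.44 to -1.06 in A3B mice, a difference of -0.54 (exact permutation p = 0.1). None of these 3 overlapped, whereas the lungs did, with a difference of 0.05 (exact permutation p = 0.7).

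Rpl7l1 against Rpl7 was higher in all 6 A3B pancreases, at -4.46 to -3.91 against -5.80 and -5.34, a difference of 1.38 (exact permutation p = 0.0714). The livers of set 2 overlapped, with a difference of -0.01 (exact permutation p = 1). Rps4l against Rps4x was higher in all A3B pancreases as well, at -5.79 to -4.17 against -8.20 and -7.75, a difference of 2.82 (exact permutation p = 0.0714), and overlapped in the liver (0.51, exact permutation p = 0.643).

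**Figure D4:**
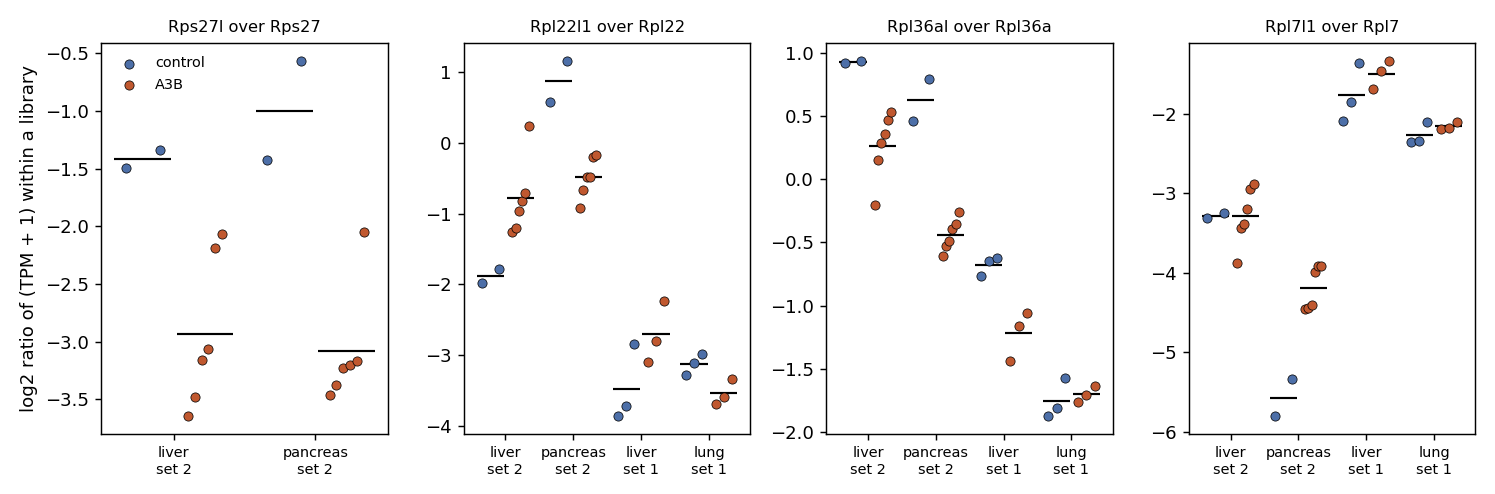
Log2 ratio of (TPM + 1) of a paralogue to its partner in each library, for 4 pairs; points are libraries and bars are group means, split into control and A3B in each tissue and set where the pair was measured. Rpl22l1 to Rpl22 moves up from -1.98 and -1.78 in the livers of set 2 and down from 0.58 and 1.16 in the pancreas.

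Shares within the family, which do not depend on library scaling, changed in the same pancreases. Rpl41 made up 11.2% and 7.08% of the summed TPM of the family in the control pancreases and 2.48% to 4.63% in the A3B pancreases. Rps24 made up 5.90% and 6.43% against 1.94% to 3.59%, and Rpl13a 7.08% and 7.38% against 3.53% to 5.78%. None of these overlapped. The 5 highest genes of control pancreas together made up 32.9% and 26.5% against 11.6% to 19.4%. In the other direction, Rpl4 made up 0.114% and 0.176% against 0.308% to 0.790%, and the 3 stalk genes 2.66% and 2.80% against 3.86% to 6.74%. Rps19 overlapped, at 1.88% and 1.89% in controls, inside the A3B range of 1.65% to 2.07%. These examples were chosen after their values were seen. The 5 highest genes, which include Rpl41, Rps24 and Rpl13a, were picked by the control libraries compared here.

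The livers of set 1 gave no call either. Of the 87 genes present there, 77 passed the filter on low values, while Rpl26, Rps15, Rps27 and other genes that every cell uses were listed at 0, so their absence says nothing of the tissue. Of the 77 tested with limma on log2(TPM + 1), 0 were higher and 0 lower, where 6.07% and 1.86% of all genes were called, and 2 were higher at an unadjusted p under 0.05, where 32.6% of all genes had such a p in either direction. The median log2 fold change was 0.25, against 0.39 over all genes, and with quantile normalization 0.34 against 0.04, so that the order of the medians turned with the scaling. Without control mouse 11, whose genotype label goes against its title, the median was 0.01 against 0.49 over all genes, with 42 positive and 35 negative fold changes in place of 73 and 4 over all 6 livers, and without A3B mouse 28 it was 0.03, with 47 and 30. Without A3B mouse 70 the tally was 76 and 1. Of 8 macrophage markers tested 1 was higher, and the summed hepatocyte markers stood at 3275 to 5729 TPM in A3B livers, below the 6195 to 7231 TPM of the controls; their part in these values was not tested. Every A3B liver lay above every control for 3 genes (28.5% of all genes) and below for 0 (10.3%). Rpl37rt, a retrotransposed copy of Rpl37, was at 9.30, 15.6 and 13.4 TPM in controls and at 26.4, 37.1 and 18.1 TPM in A3B livers, without overlap (1.01, SE 0.363, adjusted p = 0.109, limma). Rpl3l was at 1.27, 0.356 and 0.448 TPM in controls and 1.79, 3.79 and 1.63 TPM in A3B livers, also without overlap (0.99, SE 0.371, adjusted p = 0.117, limma). Rpl22l1 was at 36.2, 138 and 56.5 TPM in controls and 123, 198 and 80.0 TPM in A3B livers, which overlapped through control mouse 91 (0.92, SE 0.557, adjusted p = 0.285, limma).

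In the lungs, 6 of 77 genes were lower and 0 higher, where 20.8% and 16.1% of all genes were called, so that a smaller share of the ribosomal protein genes than of all genes was called lower. At an unadjusted p under 0.05, 38 of the 77 were lower, where 48.8% of all genes had such a p in either direction. The median log2 fold change was -0.42, against -0.06 over all genes, on the log2(TPM + 1) scale. Every A3B lung lay below every control for 33 genes (30.6% of all genes) and above for 0 (23.3%). The count of calls rested on single libraries: without control mouse 88, 68 were lower (18% of all genes), and without control mouse 87 or 91, or A3B mouse 69 or 70, 0 were (16.9%, 13.3%, 11.3% and 12.5% of all genes). Without A3B mouse 74, 3 were lower and 1 higher (17.3% and 13.1%).

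The 6 genes were Rps27l, Rpl22l1, Rpl15, Rpl36al, Rplp1 and Rps26. Rps27l was at 791, 437 and 860 TPM in control lungs and at 299, 291 and 397 TPM in A3B lungs (-1.03, SE 0.276, adjusted p = 0.0287, limma). Rpl22l1 was at 141, 85.7 and 150 TPM in controls and at 55.1, 57.9 and 82.0 TPM in A3B lungs (-0.92, SE 0.251, adjusted p = 0.0303, limma). Both were without overlap, with control mouse 88 nearest the A3B lungs. Rpl15, in the core of the large subunit, was at 523, 422 and 625 TPM in controls and 324, 336 and 364 TPM in A3B lungs (-0.60, SE 0.153, adjusted p = 0.0237, limma). Rplp1 was at 812, 674 and 927 TPM in controls and 580, 573 and 572 TPM in A3B lungs (-0.47, SE 0.129, adjusted p = 0.0299, limma).

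Rps26, which contacts the mRNA near the exit channel, was at 1511, 1293 and 1780 TPM in control lungs and 1106, 1163 and 1156 TPM in A3B lungs (-0.41, SE 0.132, adjusted p = 0.0496, limma). Rpl36al was at 265, 232 and 303 TPM in controls and 195, 191 and 200 TPM in A3B lungs (-0.44, SE 0.115, adjusted p = 0.0257, limma). Neither overlapped. Rpl29 went the other way in mice 69 and 70, at 169 and 163 TPM, but not in mouse 74, at 30.2 TPM, against 33.9, 31.6 and 49.6 TPM in the controls (1.30, SE 0.724, adjusted p = 0.209, limma). Its level also differed between mice of a group. Control mouse 91 was low in the liver too, at 46.0 TPM, against 142 and 214 TPM in the other control livers. A3B mouse 137 was low in the liver and pancreas of set 2, at 46.6 and 108 TPM. The other A3B mice were at 204 to 481 TPM and 497 to 724 TPM there. The reason was not tested. Summed B and plasma cell markers were at 69.2 to 321 TPM in the control lungs and 41.1 to 111 TPM in the A3B lungs, and summed T cell markers at 215 to 403 and 194 to 261 TPM, with control mouse 91 highest in both. Summed macrophage markers did not overlap, at 1194 to 1298 TPM in controls and 969 to 1001 TPM in A3B lungs, although 3 of the 9 were called higher and 1 lower. Of 7 neutrophil markers tested 2 were higher and 0 lower, and all 7 fold changes were positive. The part of these cell types in the result was not tested. The difference between the lung and liver effects was called for 0 genes in either direction (1.94% of all genes higher and 8.81% lower), with 6 lower at an unadjusted p under 0.05, where 29.9% of all genes had such a p in either direction. The median was -0.67 against -0.39 over all genes, and -0.75 against -0.05 with quantile normalization. With the mouse as a block the difference was called lower for 1 gene, Rpl3l (-1.19, adjusted p = 0.0405, limma), where 16% of all genes were. This block was a correlation within mice, of 0.543, and only 2 mice gave both tissues.

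The sets share no sample, so their fold changes can be set side by side. Over the 76 genes whose average reached 10 TPM in both sets, the fold changes of pancreas (set 2) and lung (set 1) had Pearson's r = 0.48 and Spearman's rho = 0.62, and r was 0.66 without Rpl29. Those of the livers of set 2 and set 1 had r = 0.57 and rho = 0.60, and 0.64 without Rpl29. Pancreas against liver of set 1 gave r = -0.07 and rho = -0.22, and liver of set 2 against lung r = -0.13 and rho = -0.10. These are descriptions across genes, which are not independent replicates and have the same length and base composition in both sets. Rps27l and Rpl22l1 were near the lower end in both the pancreas and the lung.

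**Figure D5:**
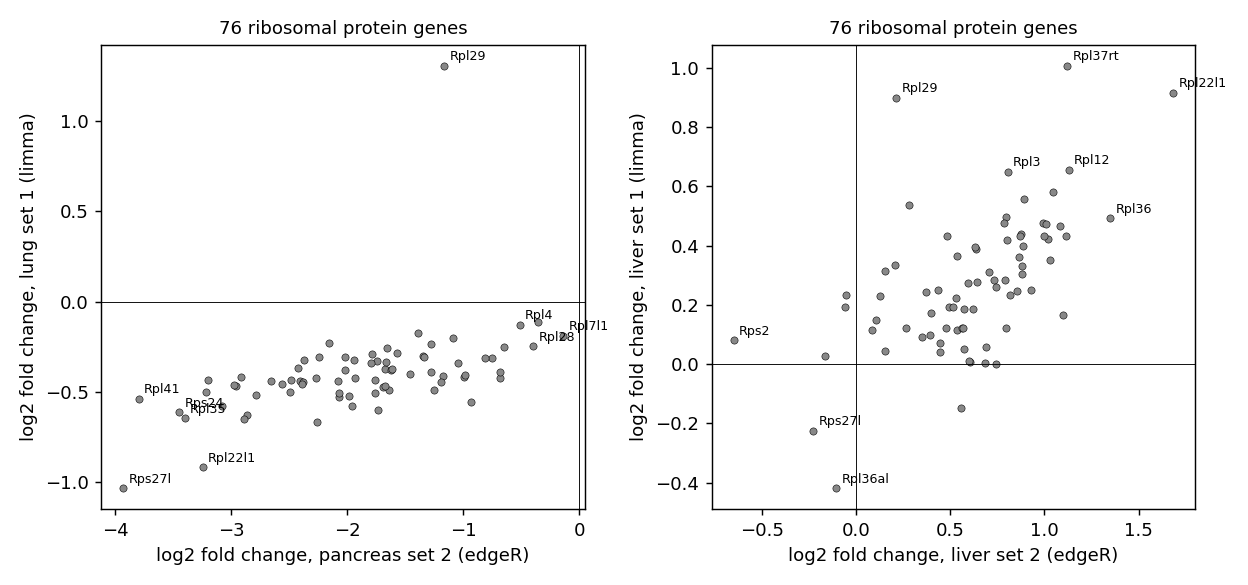
Log2 fold changes of 76 ribosomal protein genes in set 2 against those in set 1, for pancreas against lung and for liver against liver; each point is a gene. The clouds rise from left to right, with r = 0.48 and r = 0.57.

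Transcript length went with the fold changes in the liver. Over 82 genes with lengths of 294 to 2606 bases (median 613), log2 length and the log2 fold change had r = -0.51 and rho = -0.49 in the livers of set 2 and r = 0.22 and rho = 0.22 in the pancreas, so shorter transcripts had the higher fold changes in liver. The fold change and the log2 control TPM had r = -0.75 in the pancreas and 0.03 in the liver, values in which the control libraries stand on both sides.

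The genes varied together across the 16 libraries of set 2. The log2(TPM + 1) of a gene and the mean of the family had a median r of 0.94 over the 82 genes in that mean, with Rps4l lowest at -0.10. The 5 genes outside the family most like that mean were Gm7536 (r = 0.99), Rack1 (0.99), Rpsa (0.98), Naca (0.98) and AI413582 (0.97), of 7103 ranked. Rpsa and Rack1 are themselves parts of the small subunit whose symbols fall outside the rule, and Naca binds nascent chains at the exit tunnel. Within the 8 pancreases alone the values were 0.99, 0.89, 0.88, 0.89 and 0.85, in the same order of genes. The libraries differ by tissue and depth, which all genes share in these values.

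Other ribosome genes can be set beside the family, as counts and medians of lists chosen with earlier results known. Rpsa, Fau and Rack1, small subunit proteins or partners with other symbols, were all lower in the pancreas with TMM, at -1.86 (SE 0.372, adjusted p = 0.00417), -1.40 (SE 0.328, adjusted p = 0.00925) and -1.68 (SE 0.326, adjusted p = 0.00365, edgeR). With total counts these were 0.58, 0.94 and 0.66, and Fau was called higher (adjusted p = 0.0330, edgeR). In the lung Rpsa was lower (-0.45, SE 0.137, adjusted p = 0.0414, limma), while Fau was at -0.21 and Rack1 at -0.31 (adjusted p = 0.282 and 0.104, limma). In the livers of set 2 none of the 3 was called with edgeR (adjusted p of 0.0902 to 0.768).

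The 78 mitochondrial ribosomal protein genes, which build the ribosome inside mitochondria, had 44 of 78 lower and 1 higher in the pancreas with TMM (median -0.93) but 61 higher and 0 lower with total counts (median 1.37), against medians over all genes of 0.09 and 2.29. The shares of all genes called were 14.9% lower and 17% higher with TMM, and 1.1% and 70.5% with total counts. They had 61 of 77 lower in the lung (median -0.59), where 20.8% of all genes were, with medians of 0.01 and -0.04 in the livers of set 2 and set 1. Nuclear respiratory chain subunits had 71 of 96 lower and 0 higher in the pancreas with TMM (median -1.70) and 44 higher and 6 lower with total counts (median 0.69). In the lung 62 of 90 of them were lower (median -0.57). Their medians in the livers were -0.09 in set 2 and -0.27 in set 1. Beside these lung counts, 6 of 77 genes of the cytosolic ribosome were called lower, and the difference between the groups was not tested.

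Many translation factors are made from TOP mRNAs too. The list of such genes also holds Tpt1, the RNA-binding protein Hnrnpa1, which acts in splicing, and the histone chaperone Nap1l1. Of its 18 genes in the pancreas, 7 were lower and 3 higher with TMM (median -0.65), where 14.9% and 17% of all genes were, and 14 higher and 0 lower with total counts (median 1.69), where 70.5% of all genes were higher. Eef1b2, an exchange factor of elongation, was at -2.62 (SE 0.357, adjusted p = 0.000623, edgeR) with TMM and -0.20 with total counts, and Tpt1 at -2.15 (SE 0.341, adjusted p = 0.00135, edgeR) and 0.20. Among 27 other initiation and elongation factors 5 were lower and 2 higher with TMM (median 0.20) and 23 higher and 0 lower with total counts (2.40). Among 9 chaperones dedicated to single ribosomal proteins 3 were lower and 0 higher with TMM (0.14) and all 9 higher with total counts (2.37). Of 14 RNA polymerase I genes, which make the ribosomal RNA, 2 were lower and 1 higher with TMM (-0.09) and all 14 higher with total counts (2.18). Polr1d was at -1.56 (SE 0.260, adjusted p = 0.00169, edgeR) with TMM and 0.76 with total counts, and Polr1a at 0.92 (SE 0.267, adjusted p = 0.0243, edgeR) and 3.16. Among 50 genes of rRNA processing and assembly 7 were higher and 5 lower with TMM (0.00) and 48 higher and 0 lower with total counts (2.28). Nop10, a small protein of the pseudouridylation particles, was at -1.92 (SE 0.207, adjusted p = 0.000245, edgeR) with TMM and 0.39 with total counts, while the helicase Ddx21 was at 1.32 (SE 0.253, adjusted p = 0.00346, edgeR) and nucleolin (Ncl) at 1.13 (SE 0.270, adjusted p = 0.0104, edgeR) with TMM, both higher on the other scale as well (3.51 and 3.40).

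In the livers of set 1, 11 of 49 rRNA processing genes were higher and 0 lower (median 0.86 against 0.39 over all genes; 5 higher with quantile normalization), where 6.07% and 1.86% of all genes were, among them Nop58, the core of the box C/D particles, at 1.97 (SE 0.319, adjusted p = 0.0231, limma), Mphosph10 at 1.97 (SE 0.333, adjusted p = 0.0250, limma) and Rrs1 at 1.68 (SE 0.263, adjusted p = 0.0223, limma). Calls in these livers rest on single libraries. Of all genes, 699 were called higher, but 1 without control mouse 91, 7 without control mouse 92 and 43 without A3B mouse 23. Without control mouse 11, A3B mouse 28 or A3B mouse 70 there were 1362, 641 and 819. In set 2, 2 of 50 were higher, the same Nop58 (1.68, SE 0.294, adjusted p = 0.0194, edgeR) and Mphosph10 (1.73, SE 0.325, adjusted p = 0.0246, edgeR), with 0 lower and a median of 0.56, where 1.26% of all genes were higher. With total counts 11 of the 50 were higher and 0 lower (median 1.02), where 879 of 17365 genes were higher. The TOP factor list had 1 of 18 higher in set 2, Hnrnpa1 (2.20, SE 0.434, adjusted p = 0.0284, edgeR), and 2 of 18 higher in set 1, Hnrnpa1 (1.54, SE 0.300, adjusted p = 0.0346, limma) and Nap1l1 (1.48, SE 0.313, adjusted p = 0.0397, limma). Neither is a translation factor. The number of calls in the livers of set 2 depended on single libraries too. Of all genes, 218 were called higher there, but 43 without A3B mouse 44, 45 without A3B mouse 137 and 86 without A3B mouse 125. Without A3B mouse 153, 48 or 49 there were 153, 379 and 655. A fit without either control liver of set 2 leaves 1 control, too few to judge the calls of Nop58, Mphosph10 and Hnrnpa1. Lungs had 5 rRNA processing genes higher and 6 lower of 48 (median 0.01), where 16.1% and 20.8% of all genes were. Ribosome quality control and ribophagy genes had 1 higher and 3 lower of 13 in the pancreas with TMM (median -0.25) and 12 higher with total counts, 0 called of 13 in the livers of set 2 (0.03), and 2 higher and 0 lower of 12 in the livers of set 1 (0.66) and in the lungs (0.14), beside the same shares of all genes as above.

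Among 26 genes of growth signalling to translation, Ddit4, a stress-induced inhibitor of mTORC1, was higher in both livers, at 3.47 in set 2 (SE 0.698, adjusted p = 0.0300, edgeR) and 3.60 in set 1 (SE 0.575, adjusted p = 0.0228, limma). Myc, which drives ribosome synthesis, was higher in the livers of set 1 (3.38, SE 0.355, adjusted p = 0.0109, limma). Sesn2, a leucine sensor that restrains mTORC1, was higher in the pancreas (2.70, SE 0.317, adjusted p = 0.000325, edgeR), the livers of set 1 (1.77, SE 0.317, adjusted p = 0.0285, limma) and the lungs (1.27, SE 0.135, adjusted p = 0.00294, limma). Deptor, another mTOR inhibitor, was lower in the livers of set 2 (-1.73, SE 0.339, adjusted p = 0.0279, edgeR). By counts, 1 was higher and 2 lower in the livers of set 2 (median 0.02), where 1.26% and 2.41% of all genes were. In the pancreas 4 were higher and 4 lower with TMM (0.09), against 17% and 14.9% of all genes, and 24 and 0 with total counts, against 70.5% and 1.1%. In set 1, 3 of 25 were higher and 0 lower in the livers (0.53), against 6.07% and 1.86% of all genes, and 15 of 25 higher and 0 lower in the lungs (0.45), against 16.1% and 20.8%. The liver calls named here come from fits in which the number of calls depended on single libraries. In the livers of set 1, 699 of all genes were higher, but 1 without control mouse 91 and 7 without control mouse 92. In those of set 2, 418 of all genes were lower, and 133 to 944 without 1 A3B liver. A fit without either control liver of set 2 leaves 1 control, too few to judge these calls.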

How the data were processed

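Total RNA of mouse tissues was sequenced with a stranded kit. For set 2, kallisto was run against mm10 transcripts, and both its estimated counts and its TPM were deposited by the authors, 1 line per transcript; for set 1 they deposited a table of TPM per gene, made from deduplicated alignments to mm10 with GenomicAlignments and GenomicFeatures. Here 116640 of the 119414 transcripts of set 2 (97.7%) were assigned to genes with GENCODE M21 and their estimated counts were summed and rounded; 4 gene rows with repeated names in set 1 were left out. Whole libraries, not members alone, were fitted: edgeR 4.0.16 (filterByExpr, TMM, robust quasi-likelihood) for set 2, limma 3.58.1 (trend, robust) on log2(TPM + 1) with a mean of at least 1 TPM for set 1, in R 4.3.3, with Benjamini-Hochberg adjustment over all genes tested and a threshold of 0.05. The SE printed with edgeR is the absolute log2 fold change divided by the square root of the F statistic, because the test gives none. Fold changes from log2(TPM + 1) understate those of low genes. The number of reads behind set 1 is not known from TPM. DESeq2 1.42.0 was an alternative; others were total-count scaling, quantile normalization, no filter, other pseudocounts, the mouse as a block, and leaving out single libraries. Scripts were tested on simulated data.

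Named genes are the paralogue pairs, the stalk, genes with well known roles, the 5 highest in controls and the 5 with the most positive and negative fold changes; further ones were chosen after seeing the data. Some genes are not reported here by name. The members and lists were chosen with earlier results of these data known. Of each paralogue pair, ratios were compared only where both genes had measurable levels. Replicates are separate mice. Same-numbered samples come from the same mouse in different tissues, which is where the pairing comes from; their deviations from the group means had correlations of -0.02 to 0.39 over the 5 A3B mice of set 2 that gave both tissues and of 0.0236 for control mouse 45, and those of different mice -0.23 to 0.41. No pair of libraries agreed closely enough to be copies of 1 library (highest correlation 0.967 in set 2 and 0.992 in set 1).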

Additional observations from a re-analysis of the deposited data

Results flagged for a closer look

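Among 39 groups of 6 samples tested for a sample far from the others, which cover only some of the genes and not the whole family, 4 gave one, where chance alone gives about 1 in 20. Rpl22l1 in the liver of A3B mouse 49 stood at 787 TPM, against a median of 122 TPM over the A3B livers, and Rps27l in the same liver stood at 810 TPM, against a median of 196 TPM. The whole family was high in that library, at 13.4% of TPM against 7.75% in the next A3B liver, and genes outside these 39 groups stood apart there too, such as Rps12 at 4745 TPM against 941 TPM in the next A3B liver. Rpl3l in the liver of A3B mouse 48 stood at 1.55 TPM, against a median of 0.626 TPM. Rps4l in the pancreas of A3B mouse 137, whose genotype label goes against its title, stood at 78.6 TPM, against a median of 35.9 TPM.

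The A3B effect differed between pancreas and liver by the interaction term of edgeR for 46 of the 89 genes tested, all lower, where 5.03% of all genes were. With the mouse as a block 6 were lower, and with total counts 2 were lower and 3 higher. Among the genes named the difference of log2 fold changes was -4.76 for Rpl22l1, -4.25 for Rpl35, -4.37 for Rpl41 and -4.03 for Rps25, of which the latter 2 were not called with the block (adjusted p = 0.146 and 0.0755, edgeR). Without mouse 45, a control that gave both tissues, 0 genes were called.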

How the results depend on the processing

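With 2 control mice per tissue in set 2, single controls weigh heavily. Genes near 1 TPM or below, such as Rpl3l, rest on few reads. DESeq2 called 1 gene higher in the livers of set 2 instead of 0. In the pancreas, total-count scaling and limma on log2(TPM + 1) gave 30 and 34 genes higher, 3 and 3 lower, and medians of 0.61 and 0.55. The former changes the scaling alone, the latter also the unit, test and filter, and the cause was not tested. For pancreas minus liver the same settings gave 3 and 4 higher, 2 and 3 lower, and medians of -0.54 and -0.33. The replicate block left 6 lower for pancreas minus liver, where the mouse was a term of the model. It gave 1 lower for lung minus liver, where the mouse entered as a correlation within mice. The cause was not tested. In the lung 3 were lower with no filter on low values and 13 with quantile normalization (14.3% and 18.9% of all genes). Another setting, chosen after seeing the data, took the 10 genes of highest TPM out of the total but not out of the sum of the family. The family's percent in the pancreas then differed by -7.06 percentage points, A3B minus control.

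Leaving out 1 library gave, for the livers of set 2, 0 to 0 called in either direction and medians of 0.30 to 0.85; for the pancreas 31 to 74 lower, 0 to 1 higher and -2.26 to -1.07; for pancreas minus liver 0 to 49 lower and -3.05 to -1.35; for the livers of set 1 medians of 0.01 (without control mouse 11, whose label goes against its title) to 0.54; for the lungs 0 to 68 lower, 0 to 1 higher and -0.59 to -0.27; for lung minus liver 0 to 7 lower and -0.97 to -0.44.

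Single genes reversed in the pancreas with total counts and with limma on log2(TPM + 1), in that order: Rplp0 0.98 and 1.02, Rplp1 0.86 and 0.94, Rplp2 1.12 and 0.98, Rps6 0.12 and 0.11, Rps19 0.10 and 0.043, Rpl11 0.73 and 0.76, Rpl38 0.077 and 0.16, Rpl7l1 2.16 and 2.51, Rpl28 1.99 and 1.91, Rpl4 1.83 and 1.81, Rpl22 0.60 and 0.48, Rpl36a 0.79 and 0.80, Rpl7 1.05 and 1.12, Rps27 0.61 and 0.55. Leaving out 1 library gave -0.40 to 0.21 for Rpl7l1, -0.83 to 0.28 for Rpl28 and -0.15 to 7.42 for Rpl6l in the pancreas, and -0.92 to 0.17 for Rps27l in the liver, where total counts gave 0.31; each turned sign came without control mouse 45 or 168. Of 687 values of named genes under alternatives, 576 kept direction and side of the threshold, 72 fell short of it, 6 passed it and 33 reversed.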
